A study of Homo sapiens with 12 samples.

Results

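The genes described here are 42 protein-coding genes of the epithelial-mesenchymal axis and of the TGF-β matrix programme, taken by gene symbol from the 58735 genes of the expression table. They comprise 3 epithelial junction genes, 5 epithelial regulators, 3 genes of epithelial anchorage, 4 mesenchymal markers, CD44, 5 transcription factors of the epithelial-mesenchymal transition (EMT), 5 genes of TGF-β signalling, 7 matrix genes, 3 matricellular genes and 6 contractile genes. Expression was measured by poly(A) RNA sequencing in NCM460, a human cell line whose label describes it as normal colonic epithelium, and is given in FPKM (fragments per kilobase of exon, scaled to the depth of the library). The question addressed was how TNF-α, an inflammatory cytokine, changes these cells, and how Bufotenidine or loss of HTRA2, a serine protease of the mitochondrial intermembrane space, changes cells that receive TNF-α. Bufotenidine is a quaternary ammonium derivative of bufotenine, which the study calls 5-OH-TMT.

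There were 4 groups of 3 libraries. Wild-type cells were kept in medium alone, given TNF-α, or given TNF-α together with 5-OH-TMT, and cells labelled HTRA2 knockdown, made with small interfering RNA (siRNA), were given TNF-α. All 3 treated groups thus received TNF-α, and no library was a knockdown or a 5-OH-TMT treatment without it. The study describes its knockdown sequencing as set against cells with a control siRNA, whereas the labels of the TNF-α libraries name wild type and no siRNA. If the labels hold, comparisons with the knockdown join HTRA2 loss with siRNA transfection, and their effects cannot be told apart. Nor do the labels say whether the 3 libraries of a group came from separate cultures, and p-values therefore measure the spread between these libraries, which may be technical.

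Epithelial cells are held to each other by cadherins and to the basement membrane by laminin-332 and collagen XVII, and their identity is kept by factors such as GRHL2, OVOL1, OVOL2 and the splicing regulators ESRP1 and ESRP2. In EMT the factors SNAI1, SNAI2, ZEB1, ZEB2 and TWIST1 repress epithelial genes, E-cadherin (CDH1) gives way to N-cadherin (CDH2), and vimentin (VIM), fibronectin (FN1) and contractile proteins increase. TGF-β is the classical inducer of this change and of matrix production, and in the inflamed gut the same genes are studied for wound repair and fibrosis.

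The libraries held 31008429 to 37624399 reads on genes. HTRA2 was 15.4, 14.0 and 14.2 FPKM with TNF-α and 7.44, 7.18 and 7.22 FPKM in the knockdown (log2 fold change −0.98 ± 0.09, SE; adjusted p = 2.77e-05), although 20.8% and 16.1% of its exonic bases are shared with LOXL3 and AUP1 on the opposite strand. Knockdown library 2 stood apart from the other knockdown libraries on the second principal component (23.3 against −0.95 and −2.57), and mitochondrial genes took 10.4% of its summed FPKM against 14.7% and 15.5%. Of 3 simple epithelial keratin genes that were checked, KRT8 (1155 ± 149 FPKM; SD, n = 3) and KRT18 (1098 ± 147 FPKM) were abundant in medium. The other, KRT19, was low at 2.11 ± 0.185 FPKM. The 8 colonocyte markers that were checked (CDX1, CDX2, VIL1, CDH17, GPA33, KRT20, LGR5 and MUC2) did not go with the label: none had a mean of 0.1 FPKM, the highest single value was 0.0671 FPKM, and CDX2 and LGR5 had no read in any library. In contrast, KRT5 (125 ± 10.6 FPKM), KRT14 (36.0 ± 5.74 FPKM) and TP63 (13.3 ± 0.423 FPKM), markers of squamous or basal epithelium, were well detected in medium. These cells are therefore called NCM460 cells in what follows.

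Of the 42 genes, 39 had a mean of at least 0.1 FPKM over the 12 libraries and were tested. The lowest group mean among these 39 was 0.485 FPKM (TAGLN with TNF-α), so that none passed through 1 high group alone. The 3 genes that were not tested were ZEB1, ZEB2 and CTGF. ZEB1 and ZEB2, the zinc finger repressors of CDH1, had 16 and 38 reads in all 12 libraries together, with at most 6 and 8 reads in any library. CTGF, a secreted matricellular protein and a target of both TGF-β and YAP, had 60 reads in all. These were 4, 2 and 4 reads in medium, 12, 4 and 9 with TNF-α, 6, 3 and 8 with 5-OH-TMT, and 0, 0 and 8 in the knockdown, where 3 reads correspond to 0.0344 to 0.0411 FPKM depending on the library. No change of these 3 genes was detectable at this depth.

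Because FPKM is per length, levels can be ordered between genes. In the mean over all libraries, LAMB3 (286 FPKM), FN1 (274 FPKM) and LGALS1 (226 FPKM) were highest, and CDH3, TGFBI and THBS1 followed at 103, 102 and 99.4 FPKM. The epithelial cadherin gene CDH1 was at 66.8 FPKM, CDH2 was at 1.93 FPKM and VIM, the intermediate filament gene used as the standard mesenchymal marker, was at 3.40 FPKM. SNAI1, SNAI2 and TWIST1 were low but measurable, at 4.03, 4.92 and 7.97 FPKM. By FPKM the cells thus held high epithelial transcripts and high FN1, AXL and LGALS1 together with low VIM and CDH2 in every group. The map of levels by library shows each gene only against its own mean.

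**Figure D1:**
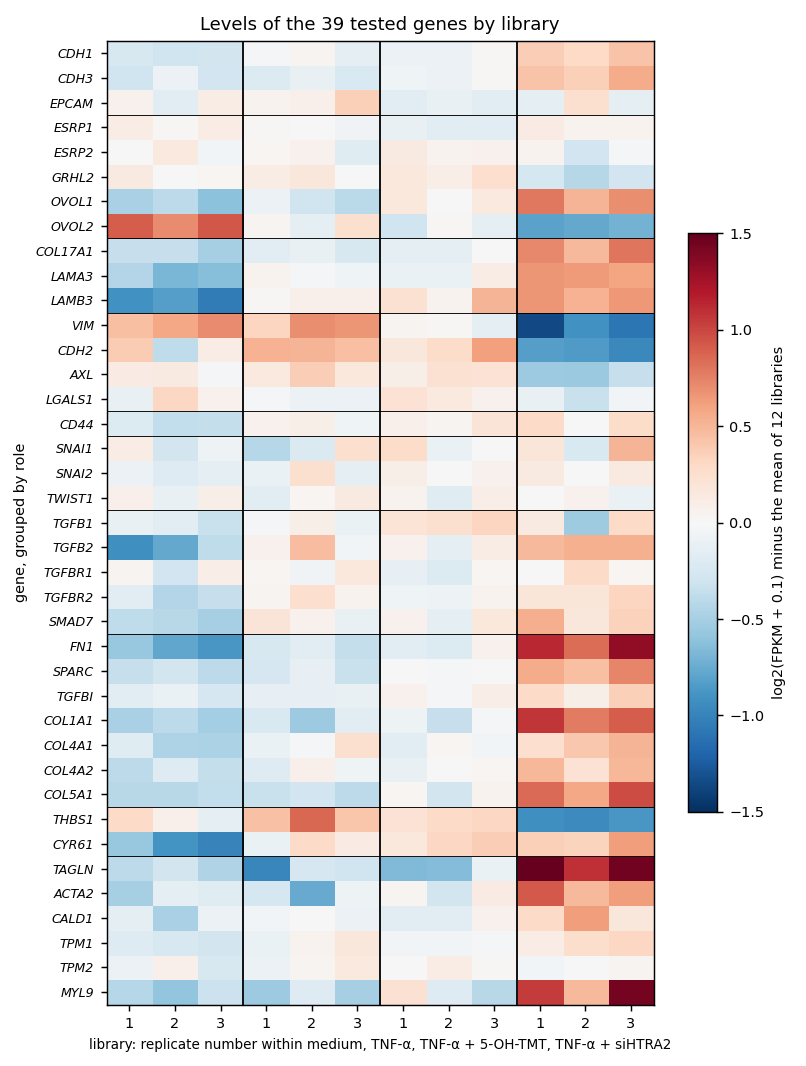
Levels of the 39 tested genes in each of the 12 libraries as log2(FPKM + 0.1) minus the gene's mean over all libraries, with genes grouped by role and vertical lines between the groups of libraries. In the knockdown columns FN1, COL1A1, COL5A1 and TAGLN are high while VIM, CDH2 and THBS1 are low, and in the medium columns LAMB3, TGFB2 and CYR61 are low and OVOL2 is high.

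TNF-α raised 2 of 3 genes of epithelial anchorage (LAMA3 and LAMB3), the TGF-β ligand gene TGFB2 with its receptor gene TGFBR2, and the matricellular genes CYR61 and THBS1, and it lowered OVOL2. VIM, CDH2, the EMT factors and the contractile genes did not pass the test. Of the 39 tested genes 7 were higher and 1 was lower at an adjusted p under 0.05 in limma, 20.5% in all, against 4.1% of the 18079 genes tested (3.22% higher and 0.885% lower). The median log2 fold change was 0.15 over the 39 genes and −0.0020 over all genes tested. By the rule of the study for differential expression (at least 2-fold and an unadjusted p of at most 0.05) none of the 39 was called, against 2.73% of all genes, LAMB3 coming closest to 2-fold.

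LAMB3 encodes the β3 chain of laminin-332, the anchor of epithelial hemidesmosomes. Its level was 142, 150 and 129 FPKM in medium and 268, 281 and 279 FPKM with TNF-α. The groups were well separated, and the log2 fold change was 0.98 ± 0.10 (SE; limma, adjusted p = 0.000124). LAMA3, the α3 chain of the same trimer, was 19.4, 16.4 and 16.8 FPKM in medium and 27.4, 25.9 and 25.1 FPKM with TNF-α, again without overlap (0.58 ± 0.08, adjusted p = 0.00102). COL17A1, the transmembrane collagen of hemidesmosomes, was 61.8, 62.1 and 55.8 FPKM in medium and 70.0, 72.8 and 66.4 FPKM with TNF-α. The COL17A1 groups did not overlap, but the difference (0.22 ± 0.08) did not pass the correction (adjusted p = 0.222).

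The starts of LAMA3 and LAMB3 are shown because these were the anchorage genes that rose with TNF-α and again with the knockdown. LAMA3 (ENSG00000053747) lies on the plus strand at chr18:23689443-23956222 and LAMB3 (ENSG00000196878) on the minus strand at chr1:209614870-209652466 (hg38). RefSeq gives starts for 26 of the 42 genes on GRCh38.p14, with 52 windows of 250 bases before a start. The AP-1 motif TGANTCA, searched on both strands, was found in 4 of the 52 windows (of LAMA3, LAMB3, CDH2 and CALD1) and in 6.57% of all 35116 windows. The NF-κB motif was found in 7 of the 52 windows (of LAMB3, TGFBR1, ZEB1 and CTGF) and in 5.21% of all windows. Genes with several starts had more windows to hold a match, and a match is a description of letters only. Capitals mark AP-1 in the LAMA3 sites and in the second LAMB3 stretch, and NF-κB in the first LAMB3 stretch, all written 5′ to 3′ on the strand of the gene.
LAMA3, chr18:23872884-23872912, plus strand, within the gene: ctggcacaggcTGACTCAtgtgtgaagtt
LAMA3, chr18:23872940-23872968, plus strand, within the gene: ccttcctcaccTGAGTCAggcaggcccgg
LAMB3, chr1:209652467-209652675, minus strand, before the first exon: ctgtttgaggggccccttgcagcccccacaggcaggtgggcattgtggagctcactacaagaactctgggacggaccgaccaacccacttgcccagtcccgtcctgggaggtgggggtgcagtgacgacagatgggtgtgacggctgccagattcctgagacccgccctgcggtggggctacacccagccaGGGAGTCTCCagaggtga
LAMB3, chr1:209651395-209651624, minus strand, before a start within the gene and outside annotated exons: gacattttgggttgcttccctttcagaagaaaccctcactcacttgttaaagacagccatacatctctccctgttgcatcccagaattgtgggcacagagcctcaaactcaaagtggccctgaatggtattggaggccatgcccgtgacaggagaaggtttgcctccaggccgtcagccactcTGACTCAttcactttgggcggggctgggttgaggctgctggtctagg

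Among the signalling genes, TGFB2, a TGF-β ligand, was 0.588, 0.665 and 0.897 FPKM in medium and 1.26, 1.69 and 1.17 FPKM with TNF-α (0.85 ± 0.17, SE; limma, adjusted p = 0.0112). TGFBR2, the type II receptor that binds the ligand, was 37.3, 31.1 and 33.2 FPKM in medium and 43.2, 50.0 and 43.5 FPKM with TNF-α (0.43 ± 0.08, adjusted p = 0.0107). Neither gene overlapped between the groups. Both calls were lost when TNF-α library 2, the highest for each, was left out (adjusted p = 0.0532 and 0.0528), and when only medium and TNF-α libraries were fitted (0.131 and 0.0892), and that of TGFB2 also without medium library 1 (0.0509). TGFB1, the main ligand of the family, differed by 0.19 (95% CI −0.17 to 0.54) and TGFBR1, the type I receptor, by 0.09 (−0.17 to 0.36). SMAD7, the inhibitory SMAD that TGF-β itself induces, was 1.04, 1.01 and 0.943 FPKM in medium and 1.59, 1.45 and 1.27 FPKM with TNF-α, without overlap but short of the correction (0.48 ± 0.14, adjusted p = 0.0798).

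CYR61, a matricellular protein and YAP target, was 19.4, 15.3 and 14.3 FPKM in medium and 26.8, 35.2 and 31.3 FPKM with TNF-α (0.93 ± 0.13, SE; limma, adjusted p = 0.00108). THBS1, thrombospondin 1, which can release TGF-β from its latent form, was 113, 97.2 and 83.9 FPKM in medium and 126, 169 and 123 FPKM with TNF-α (0.50 ± 0.12, adjusted p = 0.0399). The THBS1 groups were apart, with TNF-α library 2 well above the others. CD44, the hyaluronan receptor, was 69.4, 62.1 and 62.6 FPKM in medium and 83.8, 85.4 and 76.8 FPKM with TNF-α (0.34 ± 0.09, adjusted p = 0.0489). The calls of CD44 and THBS1 lay close to the threshold and were lost in most alternatives, with adjusted p up to 0.165 for CD44 and up to 0.232 for THBS1. OVOL2, a zinc finger repressor of EMT factors, was the gene that fell, from 3.62, 3.15 and 3.69 FPKM in medium to 1.96, 1.71 and 2.24 FPKM with TNF-α (−0.80 ± 0.12, adjusted p = 0.0024).

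The genes by which EMT is usually read did not pass the test with TNF-α. VIM was 4.21, 4.62 and 5.06 FPKM in medium and 3.84, 5.03 and 4.91 FPKM with TNF-α, with overlapping groups and a difference of −0.02 (95% CI −0.31 to 0.28). CDH1 was 56.0, 53.3 and 54.5 FPKM in medium and 65.0, 67.7 and 59.9 FPKM with TNF-α. All 3 TNF-α libraries were above all 3 medium libraries for CDH1, by 0.23 ± 0.06 on the log2 scale, with an adjusted p of 0.0687. ESRP1 (42.9, 40.2 and 42.8 against 40.2, 39.4 and 38.2 FPKM) and GRHL2 (17.2, 15.7 and 15.9 against 17.0, 17.6 and 15.8 FPKM) gave adjusted p of 0.468 and 0.861. FN1 came closest to the threshold among the mesenchymal genes, with 163, 140 and 132 FPKM in medium and 205, 214 and 188 FPKM with TNF-α (0.48 ± 0.13, adjusted p = 0.0524). The 6 contractile genes had adjusted p from 0.123 (TPM1) to 0.969 (MYL9).

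**Figure D2:**
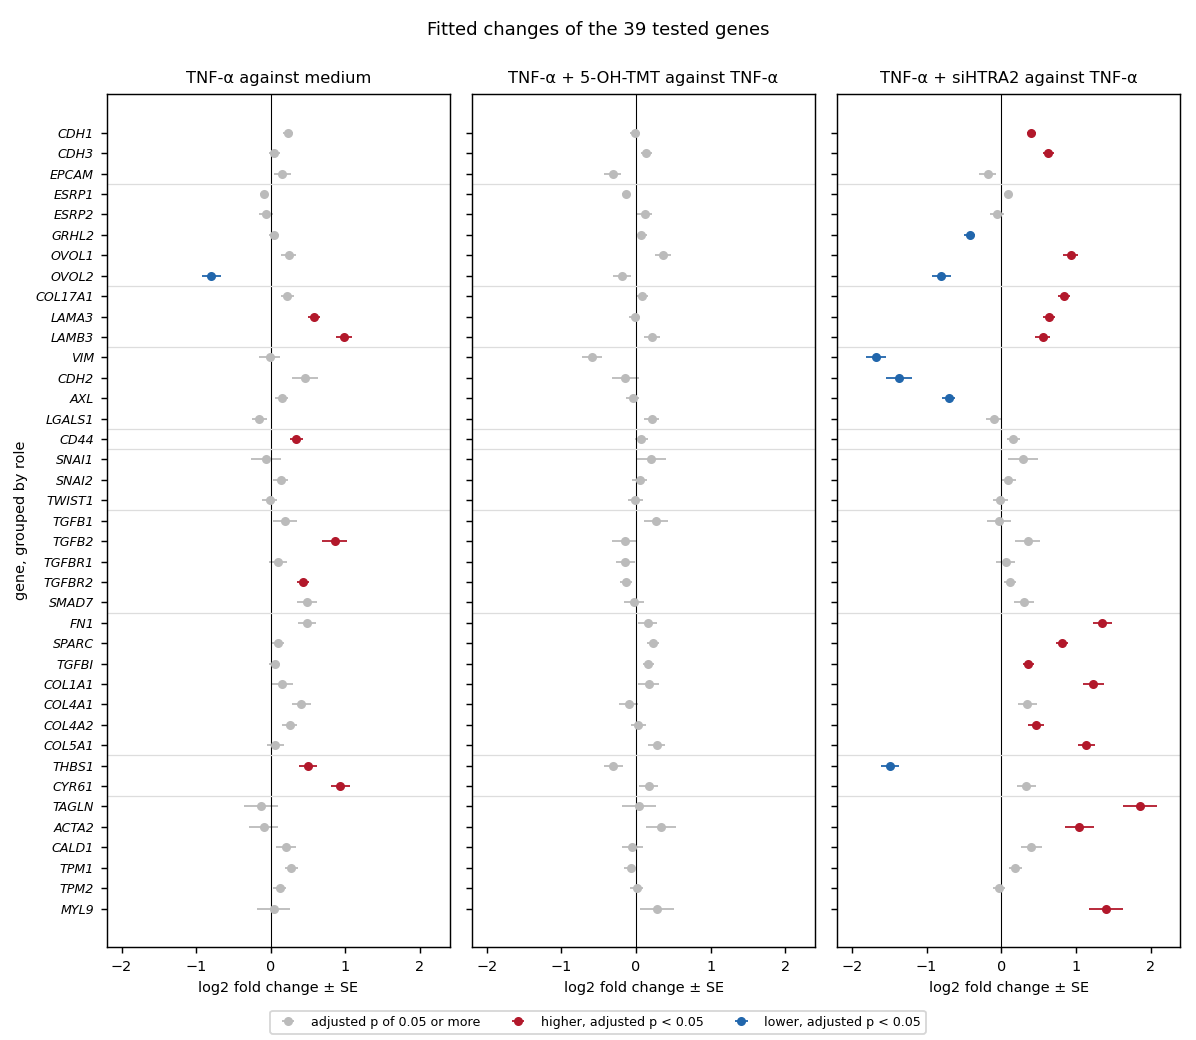
Log2 fold changes with standard errors of the 39 tested genes from the fit on log2(FPKM + 0.1), with 1 panel for each comparison, genes grouped by role, and red or blue points for genes higher or lower at an adjusted p under 0.05. TNF-α gave 8 coloured genes, 5-OH-TMT gave 0 and the knockdown gave 21, from −1.68 for VIM to 1.85 for TAGLN.

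With 5-OH-TMT added to TNF-α no gene of the 39 passed the correction in limma, against 0.0387% of all genes (7 of 18079), and none met the rule for differential expression, against 1.5% of all genes. At an unadjusted p under 0.05 there were 8 genes, 20.5% of the 39, against 20.1% of all genes, and of the 7 genes called among all genes 6 were higher (0.0332%) and 1 was lower (0.00553%). The median log2 fold change was 0.04 over the 39 genes and 0 over all genes. The share of all genes called depended on the fit. It was 5.04% (911 genes) when only these 2 groups were fitted, and 1.14% among genes with a mean of at least 1 FPKM. In both of these fits 0 of the 39 passed. The 5-OH-TMT libraries were compared with the same 3 TNF-α libraries as medium and the knockdown were.

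The lowest p among the 39 was that of VIM, which was 3.14, 3.10 and 2.76 FPKM with 5-OH-TMT, below each of the TNF-α libraries at 3.84, 5.03 and 4.91 FPKM. The log2 fold change was −0.59 ± 0.14 (SE; 95% CI −0.89 to −0.29; limma, adjusted p = 0.0922). The adjusted p of VIM was 0.0243 when limma-voom, the other tool run, was used on the recovered reads. That tool called this 1 gene of the 39 and 2.07% of all genes. When knockdown library 2 was left out of the shared estimate of the spread, the adjusted p of VIM was 0.0406. Again VIM was the 1 gene of the 39 called, and 3.05% of all genes were called. The other genes with an unadjusted p under 0.05 were EPCAM (−0.32), THBS1 (−0.30) and ESRP1 (−0.13), which were lower, and OVOL1 (0.36), COL5A1 (0.28), SPARC (0.23) and TGFBI (0.16), which were higher, with adjusted p from 0.121 to 0.242. CDH1 was 62.0, 62.0 and 66.8 FPKM, within the range of TNF-α alone, and its difference was −0.01 (95% CI −0.15 to 0.13). GRHL2 was 17.5, 16.8 and 18.6 FPKM (0.07, 95% CI −0.09 to 0.23), and ESRP1 was 36.7, 35.4 and 35.4 FPKM, below the TNF-α range. For the genes that TNF-α had raised, the intervals were −0.01 to 0.44 for LAMB3, −0.19 to 0.15 for LAMA3, −0.51 to 0.22 for TGFB2 and −0.11 to 0.45 for CYR61.

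Between the knockdown and the TNF-α libraries 21 of the 39 genes differed at an adjusted p under 0.05 in limma. In the knockdown 15 were higher and 6 lower. This was 53.8% of the 39, against 17.4% of all genes (9.35% higher and 8.08% lower). The genes that rose were 6 of 7 matrix genes, 3 of 6 contractile genes and 3 of 3 anchorage genes with CDH1, CDH3 and OVOL1, while VIM, CDH2, AXL, THBS1, GRHL2 and OVOL2 fell. By the rule for differential expression 9 of the 39 were called, against 4.23% of all genes (3.08% higher and 1.14% lower): FN1, COL1A1, COL5A1, TAGLN, ACTA2 and MYL9 were higher and VIM, CDH2 and THBS1 lower. The median log2 fold change was 0.30 over the 39 genes and −0.0034 over all genes. Without knockdown library 2 all 21 calls were kept and CD44 was added, while 18.5% of all genes were called.

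Of the 4 mesenchymal markers 3 fell. VIM (ENSG00000026025, plus strand, chr10:17228259-17237593, hg38) was 1.13, 1.58 and 1.39 FPKM in the knockdown, less than each value of 3.84, 5.03 and 4.91 FPKM with TNF-α. Its mean was 70.2% lower, the log2 fold change being −1.68 ± 0.14 (SE; limma, adjusted p = 1.75e-05). The kit did not mark strand, and 12.4% of the exonic bases of VIM are shared with its antisense gene VIM-AS1, whose mean over all libraries was 0.344 FPKM. CDH2 (chr18:27950966-28177446, minus strand), N-cadherin, was 0.963, 0.952 and 0.865 FPKM in the knockdown and 2.61, 2.60 and 2.48 FPKM with TNF-α (−1.38 ± 0.18, adjusted p = 0.000285). The values of each group were close together and the groups far apart. AXL, a receptor tyrosine kinase often raised in mesenchymal-like cells, was 46.7, 46.1 and 53.7 FPKM against 75.2, 88.1 and 75.8 FPKM (−0.71 ± 0.09, adjusted p = 0.000201). LGALS1, galectin-1, was 207, 178 and 217 FPKM against 222, 210 and 211 FPKM, with overlapping groups (−0.10, 95% CI −0.32 to 0.13).

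**Figure D3:**
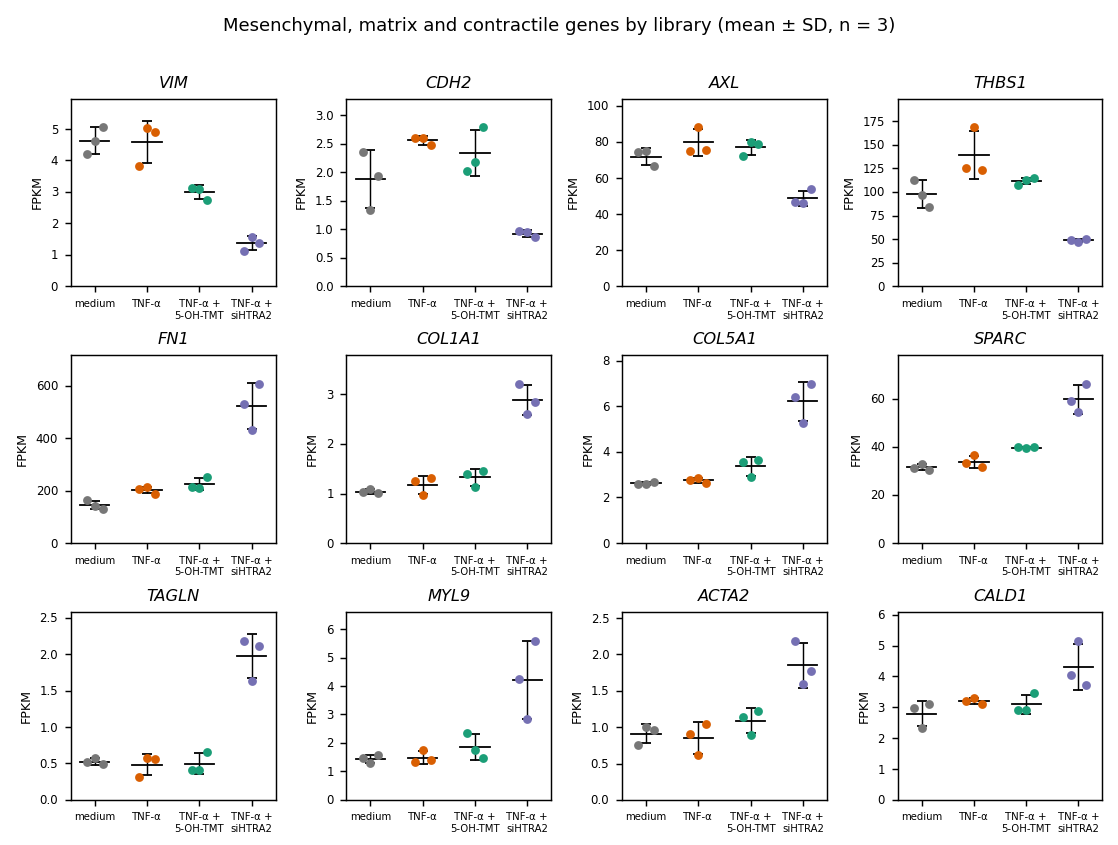
FPKM of 12 mesenchymal, matricellular, matrix and contractile genes in each library (points), with the mean and SD of the 3 libraries of each group. VIM, CDH2, AXL and THBS1 are lowest in the knockdown, whereas FN1, COL1A1, COL5A1, SPARC, TAGLN, MYL9 and ACTA2 are highest there.

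Of the 7 matrix genes 6 rose and COL4A1 did not pass the test. FN1 (ENSG00000115414, minus strand, chr2:215360440-215436172), the fibronectin that epithelial cells deposit in wounds and that is also read as an EMT marker, was 529, 431 and 607 FPKM in the knockdown and 205, 214 and 188 FPKM with TNF-α. The lowest knockdown library was above the highest TNF-α library by a wide margin, with a ratio of means of 2.58 (log2 fold change 1.36 ± 0.13, SE; limma, adjusted p = 3.60e-05). COL1A1, the α1 chain of the interstitial collagen I, was 3.21, 2.60 and 2.86 FPKM against 1.24, 0.974 and 1.31 FPKM (1.23 ± 0.14, adjusted p = 0.000126). COL5A1, of the fibril-regulating collagen V, was 6.40, 5.28 and 6.98 FPKM against 2.76, 2.84 and 2.64 FPKM (1.14 ± 0.12, adjusted p = 6.02e-05). Both collagen genes were more than doubled in mean and did not overlap between groups, with ratios of 2.46 and 2.26.

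SPARC, a collagen-binding glycoprotein, was 58.8, 54.3 and 66.1 FPKM in the knockdown and 33.4, 36.6 and 31.6 FPKM with TNF-α (0.82 ± 0.08, adjusted p = 4.37e-05). TGFBI, a secreted adhesion protein named for its induction by TGF-β, was 123, 107 and 129 FPKM against 92.8, 92.8 and 93.1 FPKM (0.36 ± 0.07, adjusted p = 0.00532). Knockdown library 2 was the lowest of its group for FN1, COL1A1, COL5A1, SPARC and TGFBI, and each was still above every TNF-α library. Without that library the log2 fold changes reached 1.49 for FN1 and 0.44 for TGFBI.

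COL4A1 and COL4A2 encode the chains of the basement membrane collagen IV and are shown together because the pair starts head to head: COL4A1 lies on the minus strand at chr13:110148963-110307233 and COL4A2 on the plus strand at chr13:110305812-110513209 (hg38). COL4A2 was 7.24, 5.94 and 7.27 FPKM in the knockdown and 4.47, 5.38 and 4.86 FPKM with TNF-α (0.47 ± 0.10, SE; limma, adjusted p = 0.00845). COL4A1 was 2.27, 2.53 and 2.73 FPKM against 1.76, 1.87 and 2.25 FPKM (0.35 ± 0.13, adjusted p = 0.0822). The ranges of the groups did not overlap for either gene, and the difference between the 2 changes was not tested. From RefSeq (GRCh38.p14), 29 bases centred on a Sp1-type GC box, GGGCGG in capitals, are shown. They lie 76 to 48 bases before a RefSeq start of COL4A2, which is within the gene as placed above. They also hold the end at 110307233 where COL4A1 begins in the hg38 annotation. Of all windows 42.6% hold this box on either strand.
COL4A1/COL4A2, chr13:110307208-110307236, plus strand: cggcggtgcgcGGGCGGcgcctcaaaggg

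Contractile genes rose in part, 3 of 6 passing the test. TAGLN (SM22α; ENSG00000149591, plus strand, chr11:117199321-117204782), an actin-binding protein of smooth muscle and a TGF-β target, was 2.19, 1.64 and 2.12 FPKM in the knockdown and 0.313, 0.581 and 0.561 FPKM with TNF-α. These values rested on 231 to 309 reads against 45 to 82 reads a library. The groups were far apart (log2 fold change 1.85 ± 0.23, SE; limma, adjusted p = 0.000212), the largest rise among the 39 genes. MYL9, a regulatory light chain of myosin, was 4.23, 2.84 and 5.59 FPKM against 1.33, 1.74 and 1.39 FPKM (1.40 ± 0.22, adjusted p = 0.00128). ACTA2, smooth muscle α-actin, was 2.19, 1.59 and 1.77 FPKM against 0.907, 0.614 and 1.05 FPKM (1.05 ± 0.20, adjusted p = 0.00361). CALD1, caldesmon, was 4.04, 5.16 and 3.73 FPKM against 3.20, 3.31 and 3.10 FPKM, without overlap but short of the correction (0.40 ± 0.14, adjusted p = 0.0614). The tropomyosin genes TPM1 (0.19, 95% CI −0.00 to 0.38) and TPM2 (−0.03, 95% CI −0.22 to 0.16) did not pass the test.

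Since the library kit did not mark strand, some reads of TAGLN and ACTA2 cannot be told from those of genes on the opposite strand. These are the reads within shared exonic bases. TAGLN shares 11.4% of its exonic bases with PCSK7, which differed by 0.32 (adjusted p = 0.105), and ACTA2 shares 12.8% with FAS, which rose by 0.35 (adjusted p = 0.0359). Summed levels of other cell types' markers also differed beside the matrix and contractile genes, but each sum rested largely on a single gene. Of 8 fibroblast markers (COL1A2, COL3A1, DCN, LUM, PDGFRA, PDGFRB, THY1 and FAP) only FAP had a mean of at least 0.1 FPKM, and DCN and THY1 had no read. The summed level was 1.12 to 1.28 FPKM with TNF-α and 1.65 to 2.02 FPKM in the knockdown, and FAP did not pass the test (0.56 ± 0.21, SE; limma, adjusted p = 0.0909). The 4 endothelial markers summed to 1.42 to 1.57 FPKM with TNF-α and 2.21 to 3.62 FPKM in the knockdown, mostly CDH5, with no read of KDR in any library. CDH5 passed the test in the knockdown (0.997 ± 0.176, adjusted p = 0.00237) and, against medium, with TNF-α (1.71 ± 0.18, adjusted p = 0.000112). PECAM1 did not pass in the knockdown (0.28 ± 0.32, adjusted p = 0.595). The 5 leukocyte markers summed to 0.0711 to 0.207 and 0.324 to 0.740 FPKM, mostly CD14, which had 4 to 10 reads a library with TNF-α and 20 to 50 in the knockdown. On these few reads CD14 passed the test in the knockdown (1.41 ± 0.35, adjusted p = 0.0163). In medium the fibroblast, endothelial and leukocyte sums were 0.766 to 1.29, 0.491 to 0.597 and 0.231 to 0.545 FPKM. In bulk RNA fewer cells of a type and less RNA per cell cannot be told apart, and the part of other cells in these differences was not tested.

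THBS1 (ENSG00000137801, plus strand, chr15:39581079-39599466) fell from 126, 169 and 123 FPKM with TNF-α to 48.6, 47.5 and 50.3 FPKM in the knockdown, a mean 65.0% lower (log2 fold change −1.50 ± 0.12, SE; limma, adjusted p = 1.78e-05). The 3 knockdown values were close to each other and below those of every other group, medium included. CYR61, the other matricellular gene tested, was 36.8, 36.2 and 44.5 FPKM against 26.8, 35.2 and 31.3 FPKM (0.33 ± 0.13, adjusted p = 0.099). TNF-α had raised both genes, and in the knockdown THBS1 was below and CYR61 above its TNF-α range.

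Epithelial genes moved in both directions. Of the 3 junction genes, CDH1 (ENSG00000039068, plus strand, chr16:68737225-68835548) was 85.1, 81.1 and 88.4 FPKM in the knockdown and 65.0, 67.7 and 59.9 FPKM with TNF-α (log2 fold change 0.40 ± 0.06, SE; limma, adjusted p = 0.00108). CDH3, P-cadherin, which is typical of basal epithelial cells, was 136, 129 and 149 FPKM against 87.3, 93.6 and 85.9 FPKM (0.63 ± 0.08, adjusted p = 0.000186). Neither cadherin gene overlapped between the groups. EPCAM, an epithelial adhesion molecule, was 59.5, 78.2 and 59.7 FPKM against 68.4, 70.0 and 84.9 FPKM, with overlapping groups (−0.18, 95% CI −0.44 to 0.07).

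All 3 anchorage genes rose. LAMB3 was 419, 380 and 417 FPKM in the knockdown and 268, 281 and 279 FPKM with TNF-α (0.55 ± 0.10, adjusted p = 0.00323). LAMA3 was 41.8, 41.1 and 39.6 FPKM against 27.4, 25.9 and 25.1 FPKM (0.64 ± 0.08, adjusted p = 0.000236), and COL17A1 was 130, 110 and 137 FPKM against 70.0, 72.8 and 66.4 FPKM (0.84 ± 0.08, adjusted p = 5.83e-05). Each of these genes had its lowest knockdown library above its highest TNF-α library, and LAMA3 and LAMB3 were already higher with TNF-α than in medium. Markers of basal or squamous epithelium moved beside them in both directions. KRT5 rose (0.41 ± 0.10, adjusted p = 0.0140), being 125 ± 11.8 FPKM with TNF-α and 166 ± 20.1 FPKM in the knockdown (SD, n = 3). KRT6A also rose (0.48 ± 0.12, adjusted p = 0.0141), KRT14 did not pass the test (0.25 ± 0.12, adjusted p = 0.161), and TP63 fell from 12.7 ± 1.90 to 9.87 ± 0.422 FPKM (−0.34 ± 0.10, adjusted p = 0.0318).

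The epithelial regulators were split. OVOL1, a zinc finger factor of epithelial differentiation, was 9.89, 8.11 and 9.30 FPKM in the knockdown and 5.35, 4.58 and 4.28 FPKM with TNF-α (0.93 ± 0.11, adjusted p = 0.000131). Its paralog OVOL2 was 1.04, 1.07 and 1.12 FPKM against 1.96, 1.71 and 2.24 FPKM (−0.80 ± 0.12, adjusted p = 0.000996), so that the paralogs passed the test in opposite directions. GRHL2, a factor that activates CDH1, was 13.0, 11.6 and 12.9 FPKM against 17.0, 17.6 and 15.8 FPKM (−0.42 ± 0.07, adjusted p = 0.00202). ESRP1, which keeps the epithelial splice forms of CD44 and other genes, was 43.1, 41.2 and 41.1 FPKM against 40.2, 39.4 and 38.2 FPKM (0.09, 95% CI −0.03 to 0.21), a range just above that of TNF-α. ESRP2 was 19.1, 15.2 and 18.2 FPKM against 18.8, 19.4 and 16.3 FPKM (−0.06, 95% CI −0.26 to 0.15).

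**Figure D4:**
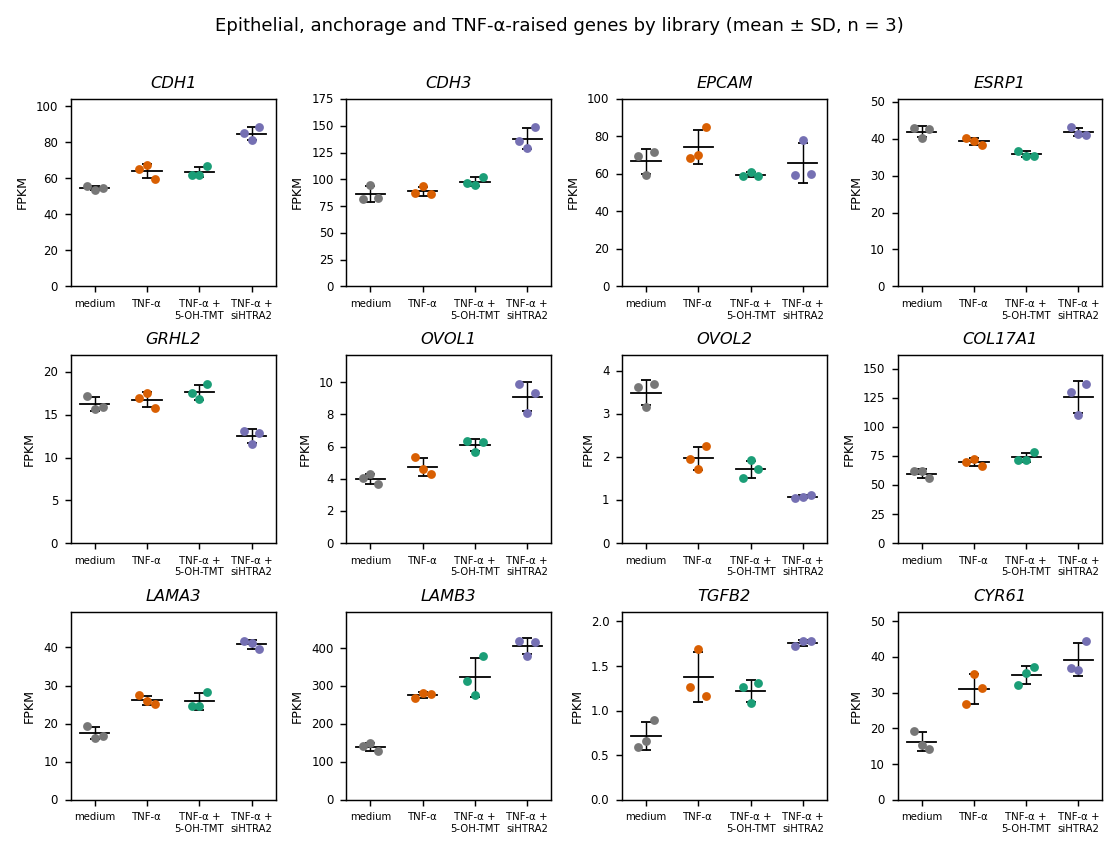
FPKM of 12 genes of epithelial junctions, regulators and anchorage and of the TNF-α-raised genes TGFB2 and CYR61 in each library (points), with the mean and SD of the 3 libraries of each group. CDH1, CDH3, OVOL1, COL17A1, LAMA3 and LAMB3 are highest in the knockdown, GRHL2 and OVOL2 are lowest there, and OVOL2 is highest in medium.

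The EMT factors that could be tested did not pass the test. SNAI1 was 4.50, 3.37 and 5.71 FPKM in the knockdown and 2.91, 3.39 and 4.69 FPKM with TNF-α (0.30, 95% CI −0.15 to 0.74). SNAI2 was 5.39, 4.90 and 5.38 FPKM against 4.55, 5.82 and 4.43 FPKM (0.09, 95% CI −0.13 to 0.31), and TWIST1 was 7.92, 8.32 and 7.42 FPKM against 7.08, 8.14 and 8.75 FPKM (−0.01, 95% CI −0.24 to 0.21). Groups overlapped for all 3 genes, and a 2-fold change of SNAI2 or TWIST1 lay outside these intervals. The 5 signalling genes did not pass either. TGFB2 was 1.72, 1.78 and 1.78 FPKM, above each TNF-α library (0.35 ± 0.17, adjusted p = 0.175), SMAD7 differed by 0.30 ± 0.14 (adjusted p = 0.151), and TGFB1, TGFBR1 and TGFBR2 differed by −0.03, 0.06 and 0.12. TGFB1 in knockdown library 2 was 17.7 FPKM, against 28.2 and 31.3 FPKM in the other knockdown libraries. CD44 was 97.9, 80.1 and 97.4 FPKM (0.16, 95% CI −0.03 to 0.35).

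The mesenchymal side of the list (the 4 markers, the 5 EMT factors, the 6 contractile genes, FN1, SPARC, COL1A1 and COL5A1, 17 of 19 tested) did not move against the epithelial side (the 3 junction genes and 5 regulators, all tested) as a block. In the knockdown 7 mesenchymal genes were higher, 3 were lower and 7 did not pass the test, and 3 epithelial genes were higher, 2 were lower and 3 did not pass. The called share was 58.8% on the mesenchymal and 62.5% on the epithelial side, against 17.4% of all genes (9.35% higher and 8.08% lower). The median log2 fold change was 0.30 on the mesenchymal side and 0.02 on the epithelial side, a difference of 0.28. That difference was 0.06 for TNF-α and 0.02 for 5-OH-TMT. It ranged from 0.11 without TNF-α library 1 to 0.39 without TNF-α library 3 in the knockdown, and was 0.14 without knockdown library 3. In single libraries the mesenchymal minus epithelial median of centred levels was −0.23 to −0.18 in medium, −0.19 to 0.01 with TNF-α, −0.05 to 0.11 with 5-OH-TMT and 0.09 to 0.29 in the knockdown. VIM and CDH1, the most used pair, went against the positive mesenchymal minus epithelial difference in the knockdown, VIM down and CDH1 up. The medians also depend on the grouping. The 3 anchorage genes, counted on neither side, had a median of 0.64 in the knockdown. In the wider lists described below the knockdown medians were 0.31 for epithelial and 0.11 for mesenchymal genes, the reverse order.

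The knockdown was also compared with 5-OH-TMT, both in cells given TNF-α. Of the 39 genes 17 were higher and 6 were lower in the knockdown at an adjusted p under 0.05 in limma, 59.0% in all, against 15.3% of all genes (7.85% higher and 7.43% lower). The 6 lower genes were VIM (−1.09 ± 0.14, SE; adjusted p = 0.000454), CDH2 (−1.23 ± 0.18, adjusted p = 0.00101), AXL (−0.66 ± 0.09), THBS1 (−1.19 ± 0.12), GRHL2 (−0.49 ± 0.07) and OVOL2 (−0.62 ± 0.12). Of the matrix genes 6 of 7 and of the contractile genes 4 of 6 were higher in the knockdown, FN1 by 1.20 ± 0.13 (adjusted p = 0.000148), COL1A1 by 1.07 ± 0.14, COL5A1 by 0.87 ± 0.12 and TAGLN by 1.82 ± 0.23. ESRP1 (0.22 ± 0.05, adjusted p = 0.0179), COL4A1 (0.45 ± 0.13, adjusted p = 0.0346) and CALD1 (0.45 ± 0.14, adjusted p = 0.0438) passed here, and TGFBI (0.20 ± 0.07, adjusted p = 0.0902) did not. VIM was 3.00 ± 0.211 FPKM with 5-OH-TMT and 1.37 ± 0.224 FPKM in the knockdown (SD, n = 3). The calls of ESRP1, LAMB3, COL4A1, COL4A2, ACTA2 and CALD1 depended on single libraries, the count falling to 18 without 5-OH-TMT library 1 or 2 or knockdown library 1. Of all genes 7.83%, 7.27% and 9.72% were called in these fits. The calls of CALD1 and LAMB3 were each lost in 13 of 22 alternatives, that of COL4A1 in 9 and that of ACTA2 in 5. Those of ESRP1 and COL4A2 were lost in 3 and 2. With all libraries kept, LAMB3, COL4A1 and CALD1 were also lost without a filter and with a replicate block.

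Other genes of these pathways were taken from 4 wider lists. In the list of TGF-β and BMP signalling, 37 of 41 genes were tested, and TNF-α raised 9 and lowered 1, which is 27.0% against 4.1% of all genes (3.22% higher), with a median of 0.05 on the log2 scale. INHBA, the activin A subunit, rose from 1.68 ± 0.0493 to 10.3 ± 0.317 FPKM (2.54 ± 0.13, SE; limma, adjusted p = 4.50e-07). The ligand gene BMP2 (1.54 ± 0.14) and FST (1.54 ± 0.15), the activin antagonist follistatin, rose as well. In the knockdown 10 of the 37 were higher and 0 lower, again 27.0%, against 17.4% of all genes (9.35% higher), with a median of 0.18. By the rule for differential expression 1 of the 37 was higher, against 3.08% of all genes. BMP2 reached 2.92 ± 0.146 FPKM from 1.06 ± 0.108 FPKM (1.38 ± 0.14, adjusted p = 6.73e-05). LTBP3 (0.70 ± 0.09) and LTBP2 (0.70 ± 0.10), latent TGF-β binding proteins, were also higher. None of the 37 passed with 5-OH-TMT in limma. An unadjusted p under 0.05 was found for 12 of the 37, a larger share than the 20.1% of all genes.

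Of 31 further epithelial genes, all tested, 14 were higher and 0 lower in the knockdown, which is 45.2% against 17.4% of all genes (9.35% higher and 8.08% lower). The median was 0.31, against −0.0034 over all genes. MUC1, a membrane mucin, was 14.7 ± 4.31 FPKM in the knockdown and 5.71 ± 0.571 FPKM with TNF-α (SD, n = 3; 1.30 ± 0.19 on the log2 scale, SE; limma, adjusted p = 0.000589). SPINT1, an inhibitor of matriptase (0.83 ± 0.09), TJP3, a tight junction scaffold (0.82 ± 0.10), and GRHL3, a paralog of GRHL2 (0.72 ± 0.14), were also higher. With TNF-α GRHL3 rose (1.06 ± 0.14, adjusted p = 0.000711) and TJP3 fell (−0.41 ± 0.10, adjusted p = 0.0461), the latter losing its call in most alternatives. The paralogs GRHL2 and GRHL3 therefore passed the test in opposite directions in the knockdown, as OVOL1 and OVOL2 did. With Bufotenidine added to TNF-α none of the 31 passed in limma, the lowest adjusted p being 0.0857. An unadjusted p under 0.05 was found for 14 of the 31, a larger share than the 20.1% of all genes. For 17 genes every Bufotenidine library was above every TNF-α library, and for 3 every one was below. The median was 0.16, against 0 over all genes.

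In the wider mesenchymal list 25 of 38 genes were tested, and in the knockdown 9 were higher and 6 lower, which is 60.0% against 17.4% of all genes (9.35% higher and 8.08% lower), with a median of 0.11. LOX, the collagen cross-linking enzyme, was 4.21 ± 0.229 FPKM against 1.90 ± 0.343 FPKM (1.12 ± 0.15, SE; limma, adjusted p = 0.000373). MMP2, a gelatinase (0.90 ± 0.11), and COL6A2, a collagen VI chain (0.89 ± 0.13), were also higher, and GNG11 (−1.06 ± 0.17, adjusted p = 0.00114) was lower. TNF-α raised 2 and lowered 2 of the 25, 16.0% against 4.1% of all genes, with TPM4 (0.26 ± 0.06), FERMT2 (0.44 ± 0.11) and S100A4 (−0.38 ± 0.09) among them. These 3 calls were lost in 9, 15 and 13 of 22 alternatives. Of 18 YAP target genes tested of 19, TNF-α raised 7 and lowered 0, including F3 (1.11 ± 0.09), NUAK2 (1.15 ± 0.13), GADD45A (1.03 ± 0.10) and IGFBP3 (0.88 ± 0.10), and the median was 0.28. This was 38.9% of the 18, against 4.1% of all genes. In the knockdown 3 of the 18 were higher, AMOTL2 (0.38 ± 0.07), CCDC80 (0.38 ± 0.10) and IGFBP3 (0.46 ± 0.10). Lower were 2, including FJX1 (−0.47 ± 0.13), so that 27.8% in all were called against 17.4% of all genes. NT5E, at 18.2 ± 0.664 FPKM with 5-OH-TMT and 24.3 ± 0.337 FPKM with TNF-α (−0.41 ± 0.06, adjusted p = 0.0435), was the 1 gene of the 4 lists that passed with 5-OH-TMT, and its call was lost in 14 of 22 alternatives.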

How the data were processed

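RNA of 12 NCM460 libraries (4 groups of 3) was sequenced by the authors from poly(A) libraries made with a kit that does not mark strand. The submitters' processing notes name CASAVA 1.8, HISAT2 2.0.4, HTSeq 0.9.1 and hg38, and whether counting used strand is not given in the sources used here. The deposited values were gene FPKM, computed by the authors. Multiplied by gene length, 100% of values were whole multiples of 1 read within 0.01 read, which gave the reads per library (31008429 to 37624399), so that genes with few reads are the least precise. The members and all gene lists were chosen with earlier results of these data known.

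Values were taken as log2(FPKM + 0.1), with fold changes on that scale, which understates changes of low genes. Genes with a mean of at least 0.1 FPKM were fitted in limma 3.58.1 (R 4.3.3) with 1 mean per group and a trend, and p-values were adjusted (Benjamini-Hochberg) over all 18079 genes. A gene was also called differentially expressed at 2-fold and an unadjusted p of 0.05 or less, the rule of the study. An exact permutation test of 3 against 3 libraries cannot go below 0.1 and was not used. The script was tested on simulated data. Members called with a mean of at least 1 FPKM were named with every value. TAGLN, with a lower mean, was named after its values were seen, as were the uncalled members. Up to 4 called genes per wider list were named by size, and 1 of these is not reported here.

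Alternatives were a pseudocount of 1 or 0.01, no filter or a mean of at least 1 FPKM, median-of-ratios or quantile scaling, a fit to the 2 groups compared, no trend, a replicate block, limma-voom on the recovered reads, and each library left out. Gene positions in the files were those of GENCODE release 29 for 99.8% of genes. Figures were drawn with matplotlib 3.10.9 in Python 3.11.15.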

Additional observations from a re-analysis of the deposited data

How the results depend on the processing

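Replicate numbers did not pair the libraries: the deviations of same-numbered libraries correlated at −0.366 to 0.151, with 5 of 18 pairs over 0.1. With a replicate block 6 of the 39 genes passed for TNF-α (CD44 and THBS1 were lost), 0 for 5-OH-TMT, 21 for the knockdown, the same genes as without it, and 20 for the knockdown against 5-OH-TMT. Of all genes 3.32%, 0.00553%, 14.7% and 11.4% were called with the block. The 21 knockdown calls were kept in every alternative, apart from TAGLN at a mean of at least 1 FPKM, which its own mean does not reach. The TNF-α count was 4 when only medium and TNF-α were fitted (2.17% of all genes), and the 5-OH-TMT count was 1 (VIM) with limma-voom (2.07% of all genes). In the knockdown 5 genes met the 2-fold rule with a pseudocount of 1, which shrinks changes of low genes.

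With 1 library left out in turn, genes passing numbered 4 to 10 for TNF-α, 0 to 1 for 5-OH-TMT, 21 to 22 for the knockdown and 18 to 25 for the knockdown against 5-OH-TMT. Those meeting the 2-fold rule numbered 0 to 2, 0 to 0 and 8 to 10 in the first 3 of these comparisons. The mesenchymal minus epithelial median was 0.0143 to 0.0637, −0.0415 to 0.119 and 0.109 to 0.389. Near-zero differences changed sign. VIM with TNF-α ranged from −0.0869 to 0.104 (0.0471 without medium library 3), CDH1 with 5-OH-TMT from −0.0609 to 0.0273 (0.00609 and 0.00596 without 5-OH-TMT library 1 or 2), and TWIST1 in the knockdown from −0.0977 to 0.0528 (0.00177 without TNF-α library 2 and 0.0281 without knockdown library 3). ZEB1, ZEB2 and CTGF had too few reads to show a change.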
